A study of Homo sapiens with 2 samples.

Results

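Proteoglycan core protein genes were compared between BT549 cells overexpressing SNHG15 and BT549 cells carrying a control vector, in RNA sequencing libraries of the bulk cultures. The set comprised 10 genes taken by symbol, namely the small leucine-rich proteoglycans BGN, LUM and DCN, the large chondroitin sulfate proteoglycan VCAN, the glypicans GPC1, GPC4 and GPC6, and the syndecans SDC1, SDC2 and SDC4. Of the 19029 genes in the table of counts, 7 were members of the set, and LUM, DCN and GPC4 were not analysed here. BT549 is an established human breast cancer line of mesenchymal character. SNHG15 is a host gene of a small nucleolar RNA and is transcribed as a long non-coding RNA, and the vector control is spelled pcIp2 in the labels. Both cultures were grown in the same serum-containing medium. Whether each was a single clone or a pool, and whether expression was stable, is not given by the sources used. Each group held 1 library, so the comparison has no replicate check and no p-value between the groups was computed.

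A proteoglycan is a core protein that carries long sulfated sugar chains, the glycosaminoglycans. Biglycan, lumican and decorin are secreted and bind collagen fibrils, and biglycan and decorin also bind TGF-beta, while versican binds hyaluronan and swells the pericellular matrix. Syndecans span the cell membrane and glypicans are held to it by a lipid anchor, and the heparan sulfate chains of both act as co-receptors for growth factors such as FGFs and link the cell to the matrix. In breast tissue biglycan, decorin and versican are known mainly as products of stromal cells, and syndecan-1 as a protein of epithelial cells that is also found in carcinoma.

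The library of SNHG15-overexpressing cells (SNHG15 cells) held 16570496 counts and that of control vector cells (vector cells) 20799017. SNHG15 itself was at 34450 counts against 466, or 1997 and 23.3 CPM (counts scaled by TMM-adjusted library size), a ratio of 85.6 (95% interval 78.1 to 94.0). The interval, here and below, is an exact one from the counts in both libraries and covers counting error only. The mesenchymal marker VIM had 1998 CPM in SNHG15 cells and 1993 CPM in vector cells. The other 5 mesenchymal markers of the list differed in both directions, with CDH2 at a ratio of 5.28 (4.12 to 6.82), SPARC at 1.78 and SNAI2 at 1.25, and FN1 at 0.555 and ZEB1 at 0.590. The 6 summed to 3588 CPM in SNHG15 cells and 3686 CPM in vector cells. Of 7 epithelial markers 1 reached a mean of 1 CPM, CLDN7, at 2 counts in SNHG15 cells against 40. Their summed level was 0.985 CPM in SNHG15 cells and 3.75 CPM in vector cells. Below that mean, KRT19 had 0 counts against 23, CDH1 12 against 11 and CLDN4 3 against 1. Oestrogen and progesterone receptor genes were not analysed here. Of 6 stromal fibroblast markers 5 were measured, with a summed level of 2017 CPM in SNHG15 cells and 2664 CPM in vector cells, most of it from COL1A1 and COL3A1. Of the 4 haematopoietic and the 4 endothelial genes 1 each was compared, CD14 at 7.71 CPM against 17.4 and TEK at 0.174 CPM against 3.70, and none of 3 adipocyte genes was compared. In bulk RNA, fewer cells of a kind and less RNA per cell cannot be told apart, and the part of these markers in the results below was not tested.

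All 7 measured members had a mean of at least 1 CPM, the level above which 12934 genes were compared. The members did not move as a block. BGN was higher in SNHG15 cells by a wide margin and VCAN was lower, while the abundant cell-surface members differed by less than 2-fold, with GPC1 and SDC4 higher and SDC1 lower. Only BGN, of the 7, had its whole interval above 2-fold, a call made for 2.2% of all genes compared, and none lay wholly below 0.5, a call made for 2.45%. By a milder rule, an interval that excludes 1 and a ratio of at least 1.5, BGN, GPC1 and SDC2 were higher, against 13.3% of all genes. VCAN was lower by the corresponding rule, against 12.2% of all genes. The remaining members, SDC4, GPC6 and SDC1, had intervals that excluded 1 and ratios short of 1.5-fold either way. The median log2 ratio of the 7 was 0.56 and that of all genes compared 0.02. With 7 genes, 1 gene more or less alters these shares too much to read them against the background.

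**Figure D1:**
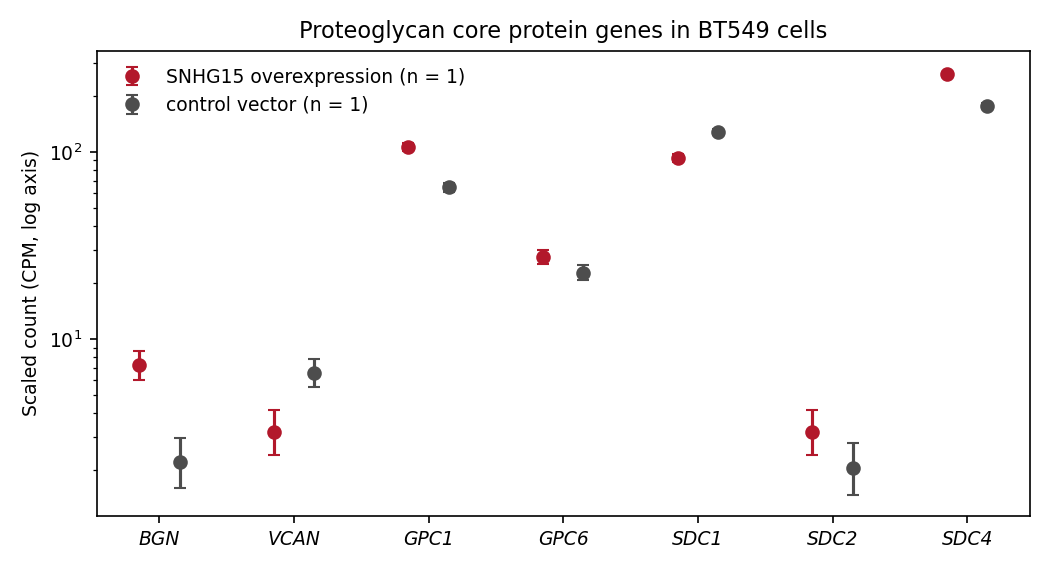
Scaled counts (CPM, log axis) of the 7 measured members in SNHG15 cells (left point of each pair) and vector cells (right point), with 1 library per group. Bars are exact 95% intervals of the count. SDC4 is the highest member in both libraries, BGN is higher in SNHG15 cells and VCAN lower.

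The 300 bases around the RefSeq start sites (250 before and 50 after, GRCh38.p14) are shown for the 5 members whose intervals lay furthest from 1, to set their GC boxes beside their ratios. Both the windows and the motif comparison were chosen once the ratios had been seen. Capitals mark the GC box GGGCGG or its complement CCGCCC, the element that Sp1-type factors can bind.
BGN, chrX:153494730-153495029, plus strand: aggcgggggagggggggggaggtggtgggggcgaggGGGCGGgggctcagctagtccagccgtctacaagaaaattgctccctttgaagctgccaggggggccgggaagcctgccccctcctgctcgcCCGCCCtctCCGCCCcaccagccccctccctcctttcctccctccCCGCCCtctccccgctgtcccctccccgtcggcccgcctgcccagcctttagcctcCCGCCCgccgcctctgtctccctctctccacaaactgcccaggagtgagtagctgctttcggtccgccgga
GPC1, chr2:240435413-240435712, plus strand: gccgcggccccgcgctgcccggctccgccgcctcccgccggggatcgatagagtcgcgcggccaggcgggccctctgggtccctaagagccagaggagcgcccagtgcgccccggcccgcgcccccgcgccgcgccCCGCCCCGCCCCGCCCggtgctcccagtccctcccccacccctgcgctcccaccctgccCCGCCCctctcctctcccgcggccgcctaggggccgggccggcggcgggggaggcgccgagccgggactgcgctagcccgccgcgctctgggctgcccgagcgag
SDC4, chr20:45348375-45348674, minus strand: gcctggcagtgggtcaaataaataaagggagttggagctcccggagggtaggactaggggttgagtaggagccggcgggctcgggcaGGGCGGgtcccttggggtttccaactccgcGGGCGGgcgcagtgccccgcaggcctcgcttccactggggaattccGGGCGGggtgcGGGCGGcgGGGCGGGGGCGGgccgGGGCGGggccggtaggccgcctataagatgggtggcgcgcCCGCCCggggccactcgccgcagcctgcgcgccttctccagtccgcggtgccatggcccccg
VCAN, chr5:83471494-83471793, plus strand: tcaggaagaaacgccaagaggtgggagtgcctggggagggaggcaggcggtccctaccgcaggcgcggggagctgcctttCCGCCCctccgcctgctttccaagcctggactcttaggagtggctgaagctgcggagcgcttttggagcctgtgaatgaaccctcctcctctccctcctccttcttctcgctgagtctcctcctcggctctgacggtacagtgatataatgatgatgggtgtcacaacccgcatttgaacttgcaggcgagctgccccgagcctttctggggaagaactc
SDC1, chr2:20225426-20225725, minus strand: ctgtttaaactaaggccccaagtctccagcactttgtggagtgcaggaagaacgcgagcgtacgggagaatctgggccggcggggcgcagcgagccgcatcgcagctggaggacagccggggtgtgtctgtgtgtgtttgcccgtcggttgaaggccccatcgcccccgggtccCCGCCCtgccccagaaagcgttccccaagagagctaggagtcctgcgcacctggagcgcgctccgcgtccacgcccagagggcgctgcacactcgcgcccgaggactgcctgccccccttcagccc
Counting both strands and allowing overlaps, the windows of BGN, GPC1 and SDC4, all higher in SNHG15 cells, held 5, 4 and 8 GC boxes. Those of VCAN and SDC1, both lower, held 1 each. Of 35116 RefSeq windows of this length, 45.0% held at least 1, and the share holding 4 or more was not computed. SDC2, higher by the 1.5-fold rule at a ratio of 1.55, had no window among those used. GC content was 71.7% for BGN, 83.3% for GPC1 and 74.0% for SDC4, and 60.3% for VCAN and 67.7% for SDC1, beside a median of 58.7% over all windows. GPC6 was also higher in SNHG15 cells, at a ratio of 1.21 (1.06 to 1.38), short of 1.5-fold. Its window was at 40% GC with no GC box and 1 TATAAA, a word found in 11.5% of windows. No TATAAA and no AP-1 word TGANTCA (7.71% of windows) lay in the 5 windows shown. The E-box word CANNTG, held by 68.7% of windows, lay once in the window of VCAN, at 2 places in that of SDC1 and in none of the other 4 windows. The RefSeq start of VCAN lies 279 bases inside the locus given by the table, whereas the other 5 starts are within 42 bases of it. These matches describe letters and not binding, and over 6 genes no relation between GC boxes and ratio was tested.

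BGN encodes biglycan, a small leucine-rich proteoglycan that binds collagen and TGF-beta and can signal through Toll-like receptors once released. It had 125 counts in SNHG15 cells and 44 in vector cells, which were 7.24 and 2.20 CPM. The ratio was 3.29 (2.32 to 4.75), so that even the lower end of the counting interval was above 2-fold. On deposited FPKM with a pseudocount of 1 it was 1.74, short of 2-fold. Of the 12934 genes compared, 195 had a higher log2 ratio than BGN (1.67). On the X chromosome 13 of 437 genes did. In the authors' deposited table BGN was the only member called (4.88% of its genes were called higher and 3.27% lower), with a log2 ratio of FPKM of 1.83 and an adjusted edgeR p of 3.93e-06. The deposited p-values equal those of an edgeR exact test with an assumed coefficient of variation of 0.1, since 1 library per group gives no estimate of it. The locus (X, 153494939 to 153509554, plus strand, hg38) overlaps the start of HAUS7 on the opposite strand, which had 427 and 441 counts and a ratio of 1.12 (0.979 to 1.28). Among possible receptors of biglycan, TLR4 had 0 counts against 3, below the level at which genes were compared.

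VCAN encodes versican, the large chondroitin sulfate proteoglycan that binds hyaluronan. It was sparse in both libraries, with 55 counts (3.19 CPM) in SNHG15 cells and 132 (6.61 CPM) in vector cells. The ratio of 0.482 (0.346 to 0.665) made it 2.07-fold lower, with an interval on both sides of 2-fold. On the scale of deposited FPKM with a pseudocount the call was lost, at a ratio of 0.912 with a pseudocount of 1 and 0.6696 with 0.1. Of all genes compared 562 had a lower log2 ratio (VCAN −1.03), and 12 of 583 on chromosome 5 did. In the authors' deposited table its log2 ratio was −0.94 with an adjusted edgeR p of 0.00882, and it was not called. Chromosome 5 as a whole had a median log2 ratio of 0.33, and the 40 compared genes nearest to VCAN (5, 83471465 to 83582303, plus strand) one of 0.59. The 3 compared genes on either side, among them RPS23 and XRCC4 before it and EDIL3 and COX7C after it, had positive log2 ratios of 0.16 to 0.45. VCAN thus lay 1.62 below the median of its neighbours on the log2 scale, the widest gap below neighbours among the 7 members. Against BGN, its ratio was 6.82-fold smaller (4.17 to 11.2 by exact interval of the ratio of ratios), a comparison that does not depend on how the libraries were scaled.

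Per kilobase of exon, SDC4 and SDC1 were above the other 5 members, SDC2 among them, in both libraries. SDC4, syndecan-4, a co-receptor of integrins at focal adhesions, had 4488 counts in SNHG15 cells and 3517 in vector cells, or 260.1 and 176.1 CPM. The gene lies at 20, 45325288 to 45348424, minus strand, in hg38. Its ratio was 1.48 (1.41 to 1.54), just short of the 1.5-fold rule, and 1.60 when the libraries were scaled by their totals. SDC1, syndecan-1, went the other way, at 1606 counts against 2559 (93.1 and 128.1 CPM) and a ratio of 0.727 (0.682 to 0.774), 1.38-fold lower (2, 20200797 to 20225433, minus strand). The ratio of SDC4 was 2.03-fold that of SDC1 (1.88 to 2.20), again free of scaling. SDC2, syndecan-2, known from mesenchymal cells, was low, with 55 counts against 41, or 3.19 and 2.05 CPM. Its ratio of 1.55 had an interval from 1.02 to 2.39 that almost reached 1. Its call was lost with DESeq2 size factors (ratio 1.51), with the deeper library thinned (1.54) and with the GC trend removed (1.39). Its ratio was also under 1.5 with a prior count of 10 (1.44) and on deposited FPKM with a pseudocount of 1 (1.14) or 0.1 (1.49). The ratio of SDC2 could not be told from that of SDC4 (ratio of ratios 1.05, 0.687 to 1.62). SDC3, the syndecan outside the set, had 1293 counts against 1798 and a ratio of 0.833 (0.775 to 0.895), on the same side as SDC1.

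Across genes, levels were compared per kilobase of merged exons in GENCODE 29. SDC4 stood at 99.5 CPM per kb in SNHG15 cells and 67.4 in vector cells, SDC1 at 25.9 and 35.6, and SDC3 at 10.6 and 12.7. SDC4 therefore made up 72.8% of syndecan message in SNHG15 cells and 58.0% in vector cells, and SDC1 made up 18.9% and 30.7%. Summed over the 4 syndecans the level was 136.7 CPM per kb in SNHG15 cells and 116.2 in vector cells. SDC4 thus held a larger share, and SDC1 a smaller one, in SNHG15 cells. The deposited FPKM values, at 103.6 and 64.7 for SDC4 and at 11.1 and 14.1 for SDC1, set these genes further apart. The gene length implied by the deposited FPKM was 2613 bases for SDC4, equal to its merged exons, but 8731 bases for SDC1, whose merged exons span 3595. Over 12894 compared genes the implied length was a median of 1.53 times the merged exons. Levels across genes therefore rest on merged exons, and deposited FPKM served mainly to compare libraries.

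**Figure D2:**
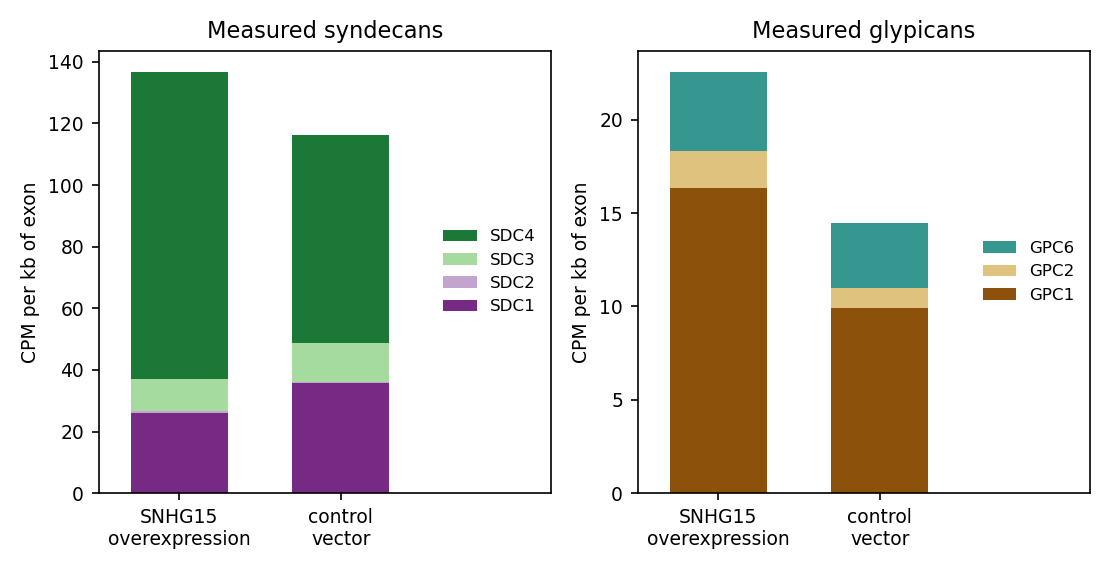
Level per kilobase of merged exons (CPM per kb) of the measured syndecans (left panel) and glypicans (right panel) in SNHG15 cells (left bar) and vector cells (right bar), stacked by gene, 1 library per group. SDC4 takes 72.8% of the syndecan bar in SNHG15 cells and 58.0% in vector cells, and GPC1 takes most of both glypican bars.

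Of the 2 glypicans measured in the set, GPC1 was higher by the 1.5-fold rule and GPC6 was not called. GPC1, glypican-1, a heparan sulfate co-receptor for FGF2 that is abundant in several carcinomas, had 1836 counts in SNHG15 cells and 1291 in vector cells, or 106.4 and 64.6 CPM. The gene lies at 2, 240435671 to 240468078, plus strand. The ratio was 1.65 (1.53 to 1.77), above 90.2% of all genes compared. In the authors' deposited table its log2 ratio was 0.84 with an adjusted edgeR p of 0.00806, and it was not called since every gene called there had an absolute log2 ratio of at least 1. GPC1 has the most GC-rich transcript of the 7 members (66.7%), and log2 ratios across genes declined with GC content (Spearman's rho −0.32, with 12895 genes that are not independent replicates). With that trend removed the ratio of GPC1 was 2.10. GPC6, glypican-6, a gene of 1180560 bases (13, 93226842 to 94407401, plus strand), had 474 counts against 452, or 27.5 and 22.6 CPM. Its ratio was 1.21 (1.06 to 1.38), and its log2 ratio of 0.28 equalled the median of its 40 nearest neighbours (0.28). The antisense gene AL354811.1 at its start had 9 and 13 counts. GPC2, outside the set, had 131 counts against 82 and a ratio of 1.85 (1.39 to 2.47). The ratio of GPC1 exceeded that of GPC6 by 1.36-fold (1.17 to 1.58). GPC1 made up 72.4% of the level per kilobase of the 3 measured glypicans in SNHG15 cells and 68.5% in vector cells.

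The order of levels per kilobase of merged exons was the same in both libraries, from SDC4 through SDC1, GPC1, GPC6 and BGN to SDC2 and VCAN. It depends on the length used. By deposited FPKM, GPC1 was above SDC1 in SNHG15 cells (11.7 and 11.1) and below it in vector cells (6.56 and 14.1). BGN was at 2.95 CPM per kb (2.46 to 3.52) in SNHG15 cells and 0.898 (0.652 to 1.21) in vector cells. SDC2 and VCAN were not separable by their counting intervals in vector cells, at 0.453 (0.325 to 0.614) and 0.446 (0.373 to 0.528). They were separable in SNHG15 cells, at 0.703 (0.529 to 0.915) for SDC2 and 0.215 (0.162 to 0.280) for VCAN. Of the 21 pairs of members, 18 had a ratio of ratios whose interval, of counting error only, excluded 1. The share over pairs of all genes was not computed, so this count is not read as a trait of the members. The exceptions were the pairs of SDC2 with GPC1, GPC6 and SDC4, in which the counts of SDC2 leave wide intervals. Added together, the 7 members had 500.7 CPM in SNHG15 cells and 402.3 CPM in vector cells, a ratio of 1.24 (1.21 to 1.28) in which SDC4 holds the most counts.

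**Figure D3:**
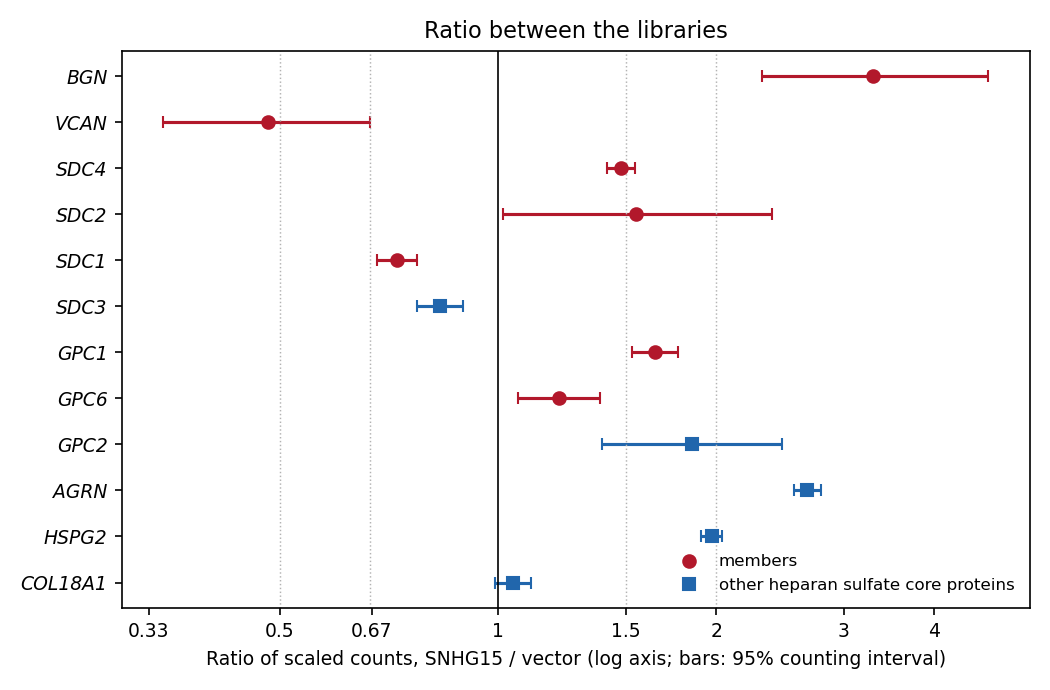
Ratio of scaled counts of SNHG15 over vector cells (log axis), 1 library per group. Circles are the 7 measured members and squares 5 other heparan sulfate core proteins picked for the plot. Further related genes, among them the testican SPOCK1 (0.557) and the link protein HAPLN3 (2.93), are not plotted. Bars are exact 95% counting intervals and dotted lines mark 1.5-fold and 2-fold, with BGN highest at 3.29 and VCAN lowest at 0.482.

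**Figure D4:**
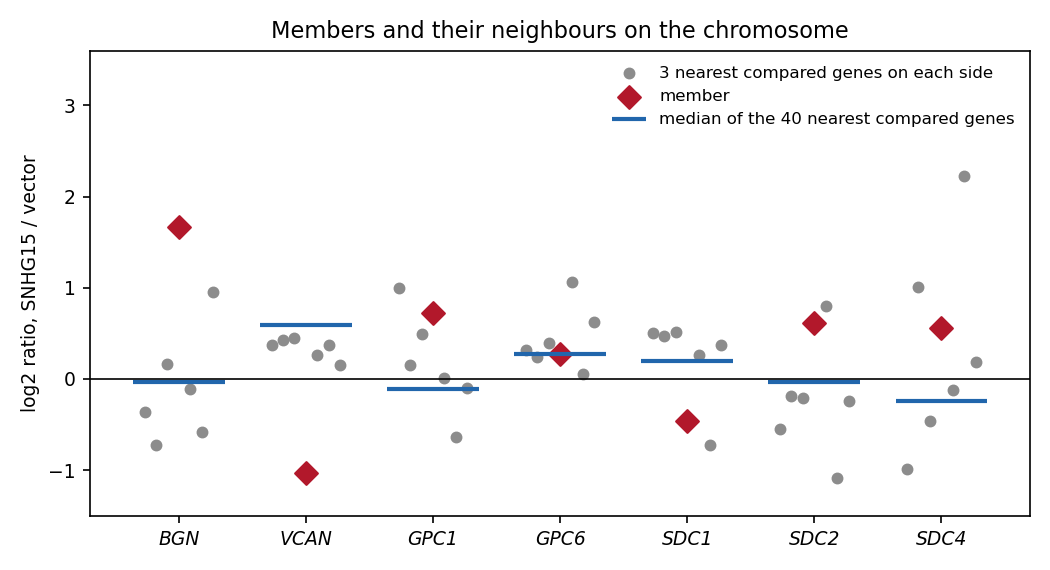
The log2 ratio (SNHG15 over vector cells) of each member (diamond), of the 3 nearest compared genes on each side (grey points, in chromosome order) and of the median of the 40 nearest compared genes (blue line). GPC6 lies on the line of its neighbours, BGN 1.70 above and VCAN 1.62 below it.

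The ratios of the members were also set beside those of nearby genes. Only GPC6, of the 7, had a log2 ratio on the same side of 0 as the median of its neighbours. The medians at BGN and SDC2 were so near 0 that their side means little, and the share over all genes was not computed. The 40 compared genes nearest to each member had median log2 ratios of −0.24 at SDC4 (chromosome 20), −0.11 at GPC1, −0.04 at SDC2 and −0.03 at BGN. They were 0.20 at SDC1, 0.28 at GPC6 and 0.59 at VCAN. Relative to those medians, SDC4 was 0.80 higher, GPC1 0.83 higher and SDC1 0.66 lower on the log2 scale, while GPC6 was at its median. BGN was 1.70 higher and VCAN 1.62 lower. For every member but GPC6 the gap is larger in size than the member's own log2 ratio (0.56 for SDC4, 0.72 for GPC1 and −0.46 for SDC1). This follows from the neighbours' median lying on the other side of 0. On chromosome 20, 19 of 362 genes had a higher log2 ratio than SDC4. These medians describe the neighbourhood and were not tested.

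Of the genes that make, modify, cut or bind these proteins, 113 from 7 lists were compared, 25 of them higher (22.1%) and 20 lower (17.7%) by the 1.5-fold rule, beside 13.3% and 12.2% of all genes. Their median log2 ratio was −0.01, and 20 further genes of the lists lay below 1 CPM. The list of other core proteins, which also holds link proteins, had 14 genes compared, 4 higher and 1 lower. The link protein HAPLN3 was among the 4, and the median log2 ratio was 0.18. Agrin, AGRN, a heparan sulfate proteoglycan of basement membranes, was at 405.9 CPM in SNHG15 cells and 151.9 CPM in vector cells, a ratio of 2.67 (2.56 to 2.79). Perlecan, HSPG2, was at 567.0 and 287.7 CPM, a ratio of 1.97 (1.91 to 2.04), and HAPLN3, a link protein that ties lecticans to hyaluronan, had a ratio of 2.93 (2.24 to 3.87). The testican SPOCK1 was lower, at 0.557 (0.480 to 0.645). The hyaluronan receptor CD44 and CSPG4 lay within 1.5-fold, at 1.17 (1.13 to 1.20) and 1.18 (1.11 to 1.26). Serglycin (SRGN), with 47 counts against 45, had a ratio of 1.21 and an interval, 0.786 to 1.86, that reached past 1.5-fold.

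Enzymes of the linker and of heparan sulfate (19 compared, 5 higher and 2 lower, median 0.02) had no common direction. The chain polymerases EXT1 and EXT2 were at ratios of 0.998 (0.947 to 1.05) and 0.792, the sulfotransferase NDST1 at 1.09, and the initiating xylosyltransferases XYLT1 and XYLT2 at 0.846 and 1.05. HS6ST1, a 6-O-sulfotransferase, was higher at 1.94 (1.74 to 2.17) and so was the xylose phosphatase PXYLP1 at 2.10 (1.65 to 2.70). EXTL3 was lower at 0.580 (0.547 to 0.615) and the epimerase GLCE at 0.551 (0.344 to 0.864). Chondroitin and dermatan sulfate enzymes (13 compared, 3 higher and 2 lower, median −0.11) included CHST3 at 1.88 and CSGALNACT2 at 1.95, and CHPF and CHST12 both at 0.624. The dermatan epimerase DSE was at 0.686 (0.527 to 0.888), short of 1.5-fold. Of 11 sulfate and sugar donor genes 1 was higher, the nucleotide sugar transporter SLC35D1 at 1.66, and 1 lower, UGDH at 0.629.

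Among genes of chain editing and breakdown (15 compared, 3 higher and 2 lower, median 0.16) the extracellular 6-O-sulfatase SULF1 had 10 counts in SNHG15 cells and 57 in vector cells, a ratio of 0.203 (0.0925 to 0.401). Heparanase, HPSE, was at 1.61 (1.37 to 1.88), the lysosomal enzyme ARSB at 1.61, and NAGLU at 0.532. Core protein proteases and cytosolic partners (18 compared, 1 higher and 6 lower, median −0.39) included ADAMTS15, a protease that cleaves versican, at 55.2 CPM in SNHG15 cells and 175.4 CPM in vector cells (ratio 0.315, 0.293 to 0.338). Syntenin, SDCBP, which binds the cytosolic tails of syndecans, was at 0.644 (0.586 to 0.708) and its relative SDCBP2 at 0.353 (0.196 to 0.607). Ezrin, EZR, was the member of that list that was higher, at 1.63 (1.57 to 1.70).

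**Figure D5:**
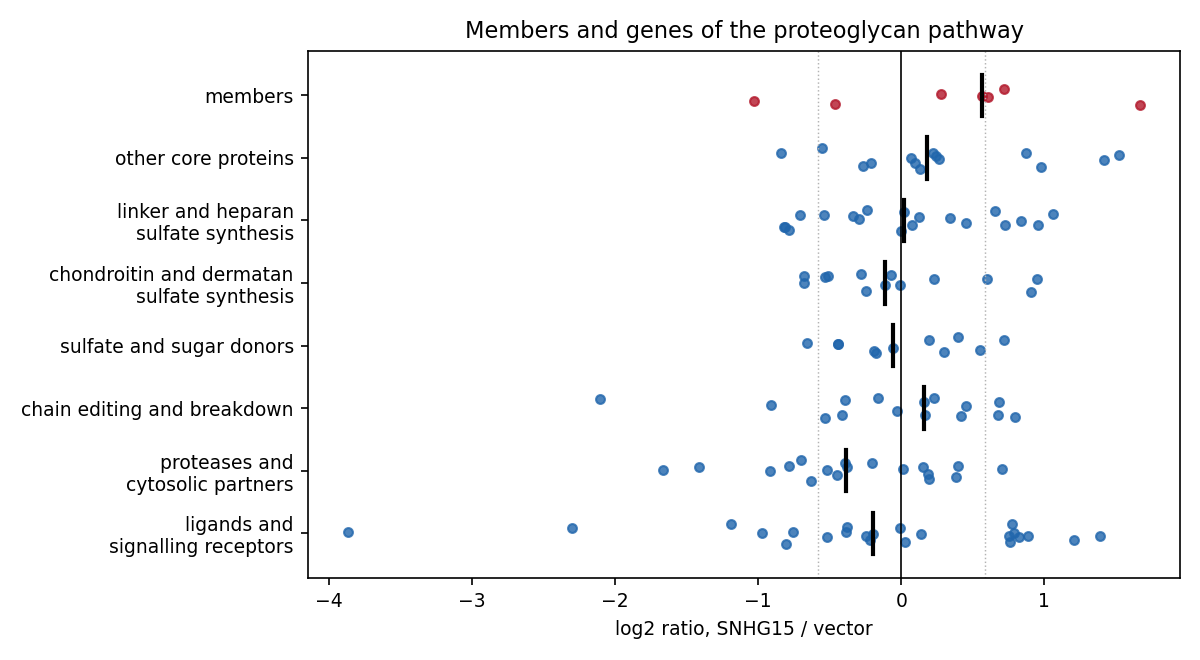
The log2 ratio (SNHG15 over vector cells) of the 7 members and of each gene compared in 7 lists of related genes, with black bars at the medians and dotted lines at 1.5-fold. The members range from −1.03 to 1.67 around a median of 0.56, and the lists have medians from −0.39 to 0.18.

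Ligands and signalling receptors that bind proteoglycans were divided (23 compared, 8 higher and 6 lower, median −0.20). FGF2, which needs heparan sulfate to engage its receptors, was at 34.9 CPM in SNHG15 cells and 68.8 CPM in vector cells (ratio 0.507, 0.460 to 0.559). The receptor FGFR1 was at 191.7 and 103.5 CPM (ratio 1.85, 1.75 to 1.96), while the EGF-type ligand HBEGF had a ratio of 1.10 (0.761 to 1.60). TGFB1, a ligand bound by biglycan, was lower at 0.571 (0.548 to 0.596), and TGFB3 was higher at 2.33 (1.87 to 2.92). BMP2 was at 0.200 (0.162 to 0.245), and AREG had 2 counts against 63. Reads of genes that overlap another gene may be divided, and since the strand of the libraries is not given this holds for FGF2, TGFB1, TGFB3, CHPF, EXTL3, UGDH, CSPG4 and XYLT2 on the opposite strand. It holds for FGFR1, XYLT1 and NAGLU on the same strand, and for DSE and SDCBP2 on both. Among the members SDC4 contains AL021578.1, which had 1 and 3 counts.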

How the data were processed

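Total RNA was sequenced from 1 library per group. The build, per the submitters' processing notes, was hg38, and the sources used here give no aligner, counter, annotation or strandedness. The authors deposited 1 table of 19029 genes with whole-number counts, FPKM, a log2 ratio of FPKM, and p-values and adjusted p-values, which come from edgeR per the table's name. The deposited FPKM follow the library totals. Genes called in the authors' deposited table number 929 higher (4.88%) and 622 lower (3.27%).

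From the counts, edgeR 4.0.16 (R 4.3.3) gave TMM factors of 1.04 for SNHG15 cells and 0.960 for vector cells. Ratios carry exact conditional-binomial (Clopper-Pearson) 95% intervals, single levels exact Poisson intervals and ratios of ratios exact conditional intervals. Reads are not independent molecules, so these cover counting error only. Log2 ratios used a prior count of 2. Over the genes compared the median count was 284 in SNHG15 cells and 315 in vector cells. GENCODE 29 gave exon lengths and transcript GC content (longest transcript, 99.7% of genes compared), and RefSeq the promoters of 6 of the 7 measured members. The GC trend was a lowess fit with a span of 0.5. The functions were tested on simulated data. The genes named were the 10 members, SNHG15, up to 2 highest and 2 lowest called genes of each list by the interval bound nearest to 1, and a fixed set of pathway genes. A gene named by this rule is not reported here. SDC3, GPC2, TLR4, the neighbours and the overlapping genes were added once their values had been seen. The members and lists were chosen with earlier results of these data known. The alternatives comprised size factors of DESeq2 1.42.0, library totals, other filters and prior counts, thinning, FPKM, removal of the GC trend, point ratios and, chosen after the data were seen, subtraction of the neighbourhood median.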

Additional observations from a re-analysis of the deposited data

How the results depend on the processing

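No member's ratio changed sides of 1 under the alternatives run. Over them the ratio ranged from 1.74 to 3.89 for BGN, 0.320 to 0.912 for VCAN, 1.60 to 2.10 for GPC1, 1.001 to 1.32 for GPC6, 0.633 to 0.846 for SDC1, 1.14 to 1.68 for SDC2 and 1.41 to 1.74 for SDC4. With library totals the median over all genes was 0.12 higher (log2). The median of the members was then 0.68, against 0.56 with TMM scaling, and SDC4 lay past 1.5-fold. A minimum of 5 CPM left out BGN, VCAN and SDC2 by construction, giving 0 members beyond 2-fold higher, 1 higher and 0 lower by 1.5-fold, and a median of 0.42. FPKM with a pseudocount of 1 compressed low genes, with 0 members beyond 2-fold higher, 0 lower by 1.5-fold, a median of 0.31 and 9 pathway genes lower, and with a pseudocount of 0.1 there were 0 members lower. Removing the GC trend gave a member median of 0.45. By point ratio without the interval 1 member, VCAN, was beyond 2-fold lower. Subtracting the neighbourhood median gave 1 member beyond 2-fold lower and 2 lower by 1.5-fold, and 14 pathway genes higher; the cause was not tested. Of the other 56 values of counts and medians, none moved by more than the tolerance used (1.5 times for counts, 0.1 for the median). Depth limits VCAN, SDC2 and BGN, with 41 to 132 counts a library. No paired analysis was possible because each group has 1 library.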
